A study of Mus musculus with 6 samples.

Results

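Nodal and the TGF-β ligands signal through related receptors, and the 10 genes described here carry that signal at successive steps. They are the ligands Nodal, Tgfb1 and Tgfb2, the antagonists Lefty1 and Lefty2, the co-receptor Tdgf1, the receptors Acvr2b and Tgfbr2, and the signal transducers Smad2 and Smad3. These 10 genes were taken by name from the 35325 annotated genes that were counted, coding for proteins or for long non-coding RNAs, of which 16713 had enough tags to be tested. For each gene, the CAGE tags that start within 500 bp of any of its annotated 5′ ends, on its own strand, were summed in all 6 libraries and expressed per 1000000 tags of the library total (TPM, with no other scaling). CAGE (cap analysis of gene expression) captures the capped 5′ end of an RNA as a single short tag, which marks where transcription began, and levels of different genes need no division by gene length.

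The ligands bind pairs of type I and type II receptors at the cell surface, which phosphorylate SMAD2 and SMAD3, and these enter the nucleus with SMAD4 to act on target genes. NODAL additionally needs an EGF-CFC co-receptor such as TDGF1 (Cripto), and it is held back by LEFTY1 and LEFTY2, which are themselves transcribed in response to NODAL. In mouse embryonic stem cells (mESCs) this branch is known for its part in early lineage choice, whereas TGF-β ligands are known in the oligodendrocyte lineage for effects on proliferation and differentiation.

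Tags were measured in 3 libraries of R08, an mESC line grown without feeder cells in medium with serum and leukemia inhibitory factor, and in 3 libraries of Oli-neu, a line labelled mOPC (mouse oligodendrocyte progenitor cells), which was grown in N2-supplemented medium with thyroid hormones, bFGF and PDGF-BB. All libraries were made from nuclear RNA, no cell was given a treatment beyond its medium, and each cell type is a single line. The mESC libraries held 16657021 to 37888141 tags and the mOPC libraries 21925299 to 40928704. The tag names in the deposited mESC libraries carry one library label and those in the mOPC libraries another, so the preparation and the cell type cannot be told apart. Nothing in the labels says that the 3 libraries of a line came from separate cultures, and p-values measure the spread between these libraries only. A share of 5.38% to 5.92% of the tags of each mOPC library lay at a single position, against 0.508% to 0.667% in mESCs, which lowers the share left for every other gene in mOPCs.

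Both cell types carried their defining genes. In mESCs the 8 mESC markers together had 4155 to 4587 TPM, and in mOPCs 17.3 to 23.4, where Pou5f1, Nanog, Zfp42, Dppa5a, Tdh and Utf1 were at 0. The 8 mOPC markers together had 2413 to 2558 TPM in mOPCs and 8.82 to 10.1 in mESCs. Of these 8, Nkx2-2 had 0 tags in mOPCs, and Pdgfra stood at 8.33 TPM in mOPCs and at 5.51 in mESCs. The 8 markers of mesendoderm, which NODAL is known to induce, together had 23.8 to 29.2 TPM in mESCs, mainly Gata4 and Gata6, and 0.912 to 1.35 in mOPCs, where Mixl1, Sox17, Gata6 and Foxa2 were at 0. In mESCs, Sox17 stood at only 2.29 TPM, Eomes at 1.37, Foxa2 at 0.785 and Mixl1 at 0.751. Gsc went the other way, at 0.0269 TPM in mESCs and 1.04 in mOPCs, nearly the whole mOPC sum, and T had too few tags to be tested. The part of such cells in the values below was not tested. The 6 fibroblast markers summed to at most 3.18 TPM in mESCs and to at most 12.4 in mOPCs, nearly all from Col1a1, with Col1a2 and Lum at 0 in mOPCs. Astrocyte markers reached 93.5 TPM in mESCs (mostly Gja1) and 16.0 in mOPCs, neuron markers 13.8 and 121.1 (mostly Syt1 in mOPCs) and microglia markers 0.0543 and 1.197.

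Nodal, Lefty1, Lefty2 and Tdgf1 had promoter tags only in mESCs, genes of TGF-β signaling differed in both directions, and the promoter levels of Smad2 did not differ beyond the spread between libraries. At an adjusted p under 0.05 (edgeR quasi-likelihood test over all 16713 genes, Benjamini-Hochberg adjustment), 6 of the 10 genes were higher in mESCs and 3 were higher in mOPCs. These cell types differ in most genes: 91.2% of all tested genes were called, 47.8% as higher in mESCs and 43.4% as higher in mOPCs. A count of 9 called genes among 10 therefore lies at the background of this comparison, and what follows rests on the sizes of the differences. All 10 genes passed the filter on low counts (10 tags at the median depth, or 0.394 TPM, in at least 3 libraries). Nodal, Lefty1, Lefty2, Tdgf1 and Tgfb2, 5 in all, reached that level throughout 1 cell type only and had to differ once they passed it. Their p-values add no support and are left out below. The median log2 fold change (mOPCs over mESCs) was −2.37 over the 10 genes, also with the genes at 0 tags in mOPCs set to the bounds below, and −0.12 over all genes tested. The 5 genes that had to differ lie at the extremes and shape this median, so it shows no shift of the set. The other genes ran from −3.47 (Tgfb1) to 4.08 (Tgfbr2).

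**Figure D1:**
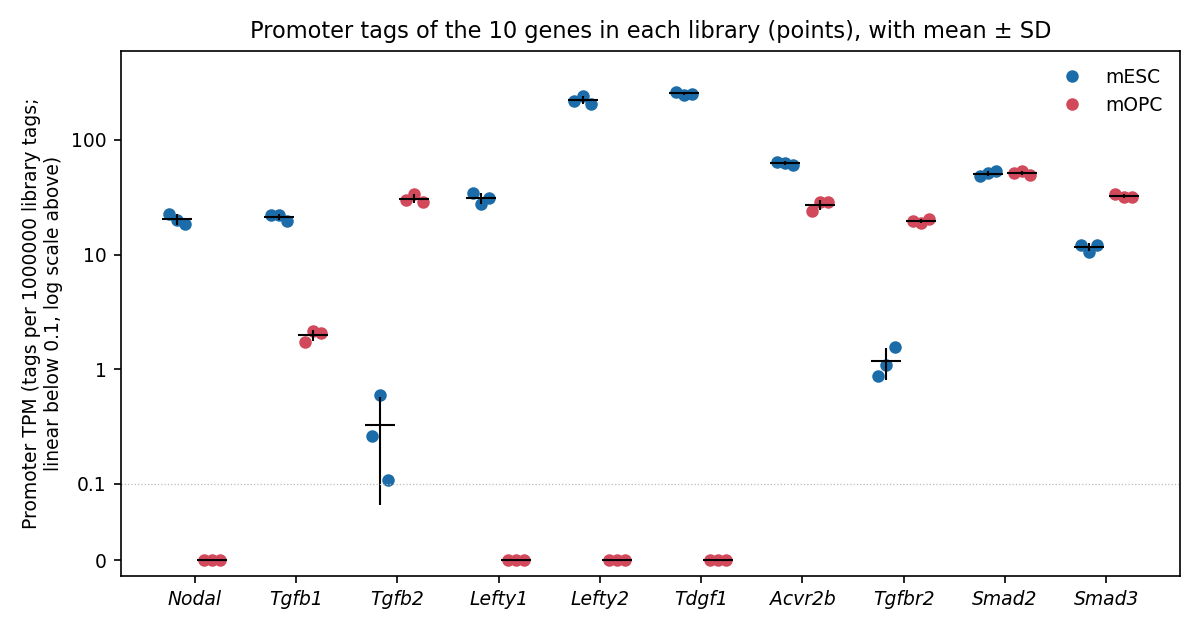
Promoter TPM (y axis, linear below 0.1 and logarithmic above) for the 10 genes (x axis) in 3 mESC and 3 mOPC libraries, with a point for each library and black lines for mean ± SD. Nodal, Lefty1, Lefty2 and Tdgf1 lie at 0 in every mOPC library, and Smad2 is the gene whose libraries overlap.

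Nodal, the ligand gene itself (chr10:61417972-61425338, plus strand, mm10), had 855, 333 and 339 promoter tags in the 3 mESC libraries, or 22.6, 19.99 and 18.4 TPM. It had 0 promoter tags in all 3 mOPC libraries. The mESC mean was 20.3 ± 2.10 TPM (SD, n = 3). Pooled over libraries, Nodal was at least 639.6-fold higher in mESCs than the level that 3 tags among the 91692553 mOPC tags would give, which is 0.0327 TPM. As the tags have no molecular identifiers, bounds of this kind account for counting error alone. As bulk values, they cannot tell fewer transcribing cells from less RNA per cell.

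Tgfb1, the founding member of the TGF-β family (chr7:25687002-25705077, plus strand), followed the direction of Nodal. It had 839, 368 and 363 tags in the mESC libraries (22.1, 22.1 and 19.7 TPM) and 38, 62 and 85 in the mOPC libraries (1.73, 2.15 and 2.08). The groups did not overlap, and the mESC mean of 21.3 ± 1.40 was 10.7-fold that in mOPCs (log2 fold change −3.47 ± 0.14 SE, edgeR adjusted p = 1.7e-41). Within mESCs, Tgfb1 and Nodal could not be ranked, as their libraries overlapped.

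Tgfb2, another TGF-β ligand (chr1:186622792-186705989, minus strand), ran the other way. The mESC libraries held 10, 10 and 2 tags (0.264, 0.600 and 0.109 TPM), and the mOPC libraries 656, 976 and 1173 (29.9, 33.8 and 28.7). The mean of 30.8 ± 2.70 TPM in mOPCs was 95.0-fold the mESC mean of 0.324 ± 0.251 (log2 fold change 6.58 ± 0.20 SE). The low counts in mESCs limit the precision of that ratio. The 2 TGF-β ligand genes thus had opposite levels, with Tgfb1 higher in mESCs and Tgfb2 higher in mOPCs.

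Lefty1 and Lefty2, which encode secreted antagonists of NODAL, lie next to each other on chromosome 1, on the plus strand (chr1:180935022-180938400 and chr1:180893108-180899103). Lefty1 had 1302, 465 and 569 tags in mESCs, or 34.4, 27.9 and 30.9 TPM. Lefty2 had 8346, 4060 and 3816 tags, or 220.3, 243.7 and 207.1 TPM. Neither gene had a promoter tag in any mOPC library.

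The mean of Lefty2 in mESCs, 223.7 ± 18.6 TPM, was above that of Lefty1, 31.1 ± 3.23, with no overlap between libraries. By the same pooled bound, Lefty1 was at least 978-fold higher and Lefty2 at least 6795-fold higher in mESCs. The genes are near copies of each other: 42.1% of the 21-base stretches within the first 1000 bases of the Lefty1 transcripts also occur in Lefty2, and 43.3% of those of Lefty2 occur in Lefty1. The authors kept only uniquely aligned tags, so tags from these stretches can be lost from either gene, and the ratio between Lefty1 and Lefty2 is uncertain.

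Tdgf1, the co-receptor gene (chr9:110939603-110946158, minus strand), had the highest level of the 10 genes in mESCs. Its libraries held 9966, 4133 and 4658 tags (263.0, 248.1 and 252.8 TPM), and the mOPC libraries 0. The mean was 254.6 ± 7.63 TPM, and all 3 libraries lay above those of Lefty2. Pooled over libraries, Tdgf1 was at least 7856-fold higher in mESCs. Of its 21-base stretches, 24.5% also occur in other genes, mostly the pseudogenes Tdgf1-ps1, Tdgf1-ps2 and Gm13455, which makes this level uncertain as well.

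Acvr2b encodes a type II receptor that NODAL and activins use (chr9:119402118-119434995, plus strand), and it was transcribed in both lines. The mESC libraries had 2455, 1053 and 1116 tags (64.8, 63.2 and 60.6 TPM) and the mOPC libraries 528, 825 and 1185 (24.1, 28.6 and 28.95). The mESC mean of 62.9 ± 2.14 was 2.31-fold the mOPC mean of 27.2 ± 2.72, and the libraries did not overlap (log2 fold change −1.27 ± 0.09 SE, edgeR adjusted p = 6.5e-24).

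Tgfbr2, the type II receptor of TGF-β ligands (chr9:116084293-116175360, minus strand), was low in mESCs and went with Tgfb2. It had 33, 18 and 29 tags in mESCs (0.871, 1.08 and 1.57 TPM) and 432, 548 and 834 in mOPCs (19.7, 19.002 and 20.4). The mOPC mean of 19.7 ± 0.687 was 16.8-fold the mESC mean of 1.18 ± 0.361 (log2 fold change 4.08 ± 0.17 SE, edgeR adjusted p = 2.3e-41). The type II receptors Acvr2b and Tgfbr2 therefore differed in opposite directions.

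Smad2 and Smad3 encode the receptor-activated SMADs shared by both branches. Smad2 (chromosome 18, plus strand) had 1843, 853 and 979 tags in mESCs (48.6, 51.2 and 53.1 TPM) and 1134, 1539 and 2013 in mOPCs (51.7, 53.4 and 49.2). The libraries overlapped, with means of 51.0 ± 2.25 and 51.4 ± 2.11 TPM (log2 fold change −0.05 ± 0.09 SE, edgeR adjusted p = 0.546). Smad2 was the one gene of the 10 that did not pass the test, and it also had the highest level of the 10 in mOPCs.

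Smad3 (chr9:63646767-63757994, minus strand) had 461, 175 and 224 tags in mESCs (12.2, 10.5 and 12.2 TPM) and 739, 912 and 1305 in mOPCs (33.7, 31.6 and 31.9). The mOPC mean of 32.4 ± 1.13 was 2.79-fold the mESC mean of 11.6 ± 0.956 (log2 fold change 1.40 ± 0.10 SE, edgeR adjusted p = 3.2e-23). In mOPCs, Smad3, Tgfb2 and Acvr2b followed below Smad2. The libraries of Smad3 overlapped those of Tgfb2, and those of Tgfb2 overlapped those of Acvr2b, whereas those of Tgfbr2 lay below all of them.

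Several of these values rest on which tags are counted for a gene. With windows of 100 bp instead of 500 bp, 4 tested genes moved by over 1.5 times: the log2 fold change was −1.29 for Tgfb1, −2.06 for Acvr2b, 0.41 for Smad3 (edgeR adjusted p = 0.037) and 0.71 for Smad2, which was then called as higher in mOPCs (edgeR adjusted p = 2.7e-07). Nodal had too few tags in the narrow windows to be tested. Other choices of tags moved the TGF-β ligands by over 1.5 times: the log2 fold change of Tgfb1 was −1.45 with the 5′ ends of basic transcripts only and −2.70 with all tags in the gene body and windows, and that of Tgfb2 was 7.37 with basic transcripts only. Where these genes started is therefore described next.

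The starts of these genes could be placed to the base, and for several of them the most used start was not the annotated one. Positions are given as deposited. Over 8543 RefSeq promoter windows that hold the most used position of their gene, the base at the deposited position was a C or T in 92.5% and the next base an A or G in 95.4%. Transcription commonly begins at the purine of such a pair, which here is the base after the deposited position, and the cause of this offset was not tested.

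**Figure D2:**
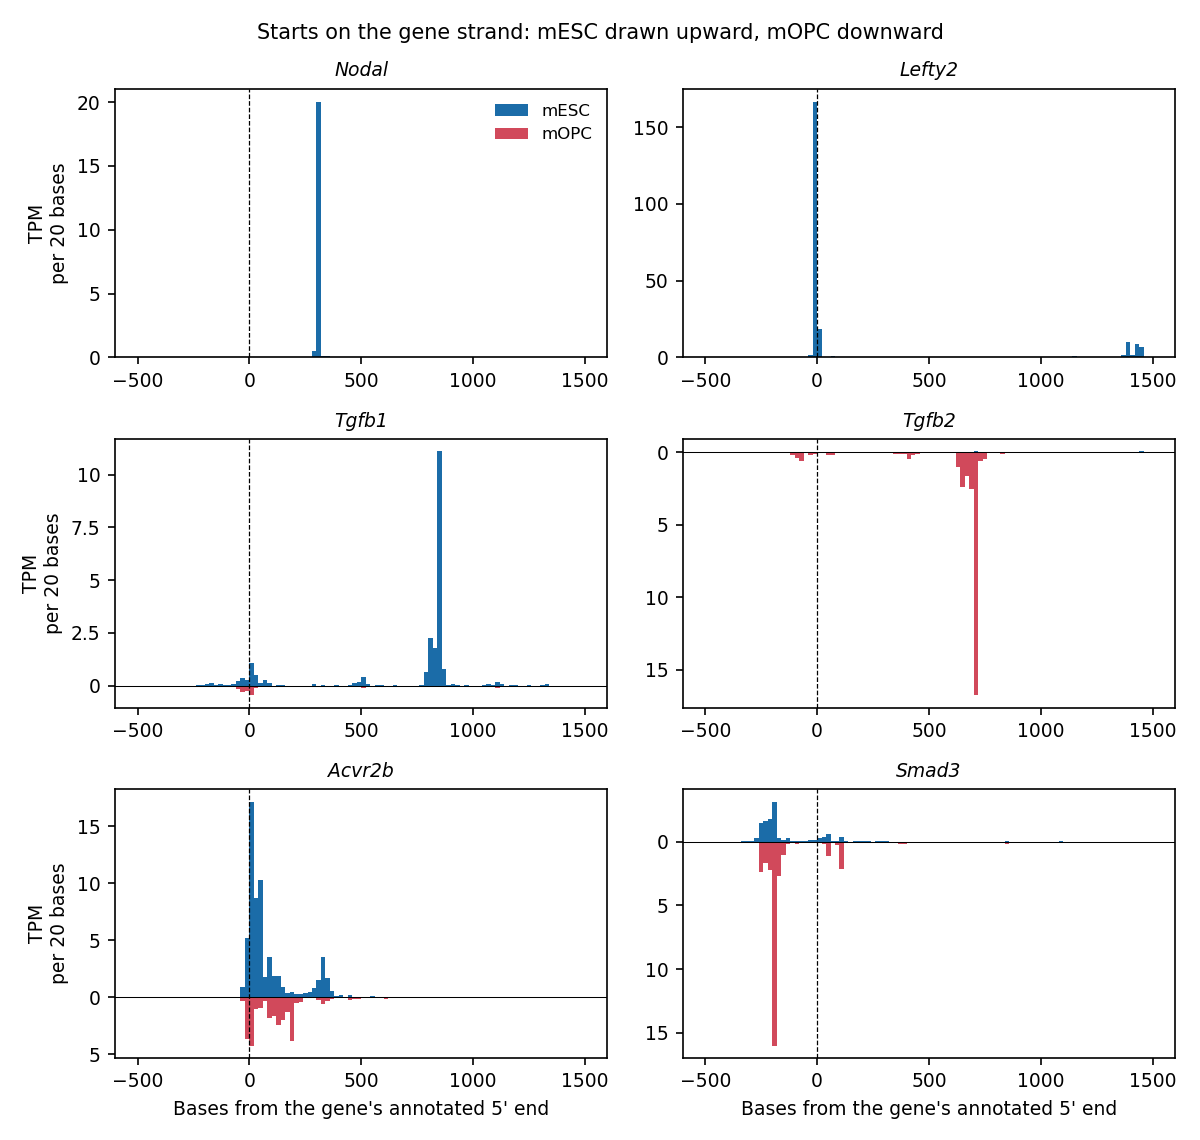
TPM over the pooled libraries in bins of 20 bases (y axis) against the distance from the annotated 5′ end of the gene (x axis, dashed line at 0), on the gene strand, for 6 genes. The mESC values are drawn upward and the mOPC values downward, and the highest bars of Nodal, Tgfb1 and Tgfb2 stand well inside the annotated gene.

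Nodal transcription started almost entirely 314 bases inside its annotated 5′ end, in the exon that holds the 5′ untranslated region. The position chr10:61418286 held 48.0% of the 1527 promoter tags of mESCs and was the highest in all 3 libraries, and the next 2 bases held 27.2% and 6.81%. Only 5 of the 1527 tags (0.327%) fell in the window of 250 bases before to 50 bases after the RefSeq start.

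Lefty1 and Lefty2 started close to their annotation. Lefty1 had 54.9% of the tags of its first window at 17 bases inside the 5′ end, and Lefty2 had 82.4% at the base just before it. Each gene also had a second, weaker group of starts at the 5′ end of a transcript without coding sequence inside the gene, with 248 tags in Lefty1 and 2318 in Lefty2 over the mESC libraries. That group held 9.83% to 13.5% of the promoter tags of Lefty1 and 13.6% to 15.3% of those of Lefty2. Tdgf1 started 63 bases inside the annotated 5′ end of the gene, at the base before the start of a shorter transcript, where 31.6% of the tags of its first window lay.

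Tgfb1 used 2 separate groups of starts, and their balance differed between the lines. Starts around the annotated 5′ end gave 4.12, 3.90 and 3.74 TPM in mESCs and 1.23, 1.53 and 1.71 in mOPCs. The inner group, all tags of the window chr7:25687648-25689427, gave 18.0, 18.2 and 16.0 TPM in mESCs and 0.456, 0.624 and 0.366 in mOPCs. In mESCs it was highest 844 bases inside the gene at chr7:25687846, still upstream of the coding sequence. The 20 bases from 840 bases inside the gene held 11.1 TPM in the pooled mESC libraries and 0.0109 in mOPCs. Most mOPC tags of this group thus lay outside these 20 bases. Means for the annotated group were 3.92 ± 0.187 and 1.49 ± 0.242, a ratio of 2.63, and for the inner group 17.4 ± 1.24 and 0.482 ± 0.131, a ratio of 36.0. The inner group thus held 80.99% to 82.3% of the Tgfb1 promoter tags of each mESC library and 17.6% to 29.03% of those of each mOPC library, with no overlap, although the mOPC shares rest on 10 to 18 tags a library. With 3 libraries against 3, an exact permutation test gives no p below 0.1, the value obtained for each group of starts (two-sided).

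The bases around the annotated Tgfb1 start, which the mOPC line mainly used, are shown with those of Acvr2b and Smad3, since in these genes the most used position differed between the lines. All come from RefSeq promoter windows (GRCm38.p6, matched for 7 of the 10 genes; Lefty1, Lefty2 and Smad2 had none), each written 5′ to 3′ on the gene strand. Capitals mark, among the 3 positions with the most tags in the RefSeq window (both lines together, scaled by depth), those inside the stretch shown. The stretches lie at chr7:25686902-25687021 (plus strand), chr9:119402030-119402147 (plus strand) and chr9:63758161-63758244 (minus strand).
Tgfb1: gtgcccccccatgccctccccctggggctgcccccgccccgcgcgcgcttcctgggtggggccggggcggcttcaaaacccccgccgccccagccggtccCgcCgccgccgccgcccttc
Acvr2b: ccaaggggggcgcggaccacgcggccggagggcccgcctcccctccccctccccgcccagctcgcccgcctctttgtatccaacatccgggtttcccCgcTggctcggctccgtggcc
Smad3: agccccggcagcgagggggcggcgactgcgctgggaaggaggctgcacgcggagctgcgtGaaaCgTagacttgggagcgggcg

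The Tgfb1 stretch held 9.43% of the Tgfb1 promoter tags of mESCs and 58.9% of those of mOPCs. In Acvr2b, the capital T (chr9:119402130) was the highest position in all 3 mESC libraries with 12.2% of the tags of the first window, whereas in mOPCs the highest position lay 180 bases further inside (7.38% of tags) in 2 of 3 libraries. The Acvr2b stretch held 45.6% of its promoter tags in mESCs. In Smad3, the capital C (chr9:63758180), 186 bases before the annotated 5′ end, was the highest position in all 3 mOPC libraries with 14.8% of the tags of the first window. In mESCs the highest Smad3 position lay 56 bases further upstream (8.18%) in 2 of 3 libraries, and the third library had the position of the mOPC line. The Smad3 stretch held 65.9% of the Smad3 promoter tags of mESCs and 74.1% of those of mOPCs. Smad2 was the one of the 5 genes with at least 50 promoter tags in both lines (Acvr2b, Smad2, Smad3, Tgfb1 and Tgfbr2) with the same highest position in the pooled tags of each, 341 bases inside its annotated 5′ end. In 2 of the 3 mESC libraries, however, its highest position lay 22 bases before that one.

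Tgfb2 in mOPCs started mainly 714 bases inside the annotated 5′ end, at chr1:186705275 in the 5′ untranslated exon, with 30.5% of the 2726 tags of the first window. The annotated start of Tgfb2 was little used although a TATA box sequence, TATAAA, lies 31 bases before it. It is shown because the data bear on it (RefSeq, GRCm38.p6, chr1:186705980-186706049, minus strand, with TATAAA in capitals).
Tgfb2: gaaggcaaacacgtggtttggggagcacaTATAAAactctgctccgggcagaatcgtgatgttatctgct

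This Tgfb2 stretch held 31 mOPC tags over all 3 libraries, and 0 of them lay within 10 bases of the RefSeq start. The whole RefSeq window of Tgfb2 held 5.74% of its promoter tags in mOPCs. TATAAA occurs on either strand in 13.6% of all 32851 RefSeq windows and in no other of the 7 matched genes. GGGCGG, the core of the GC box, occurs in 35.7% of all windows, and here 6 times in Tgfb1, 3 times in Acvr2b, 2 times in Smad3 and 1 time in Tdgf1. CCAAT occurs in 37.4% of all windows and here in Nodal, Tgfb2 and Tgfbr2. AATNCACA, a form of the site bound by FOXH1, the SMAD partner of Nodal signaling, occurs in 3.60% of all windows and in none of the 7. These motifs were searched on both strands, and a match or its absence describes only the letters of the window.

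Judged by the middle 80% of their tags, Nodal, Lefty1, Lefty2 and Tdgf1 had narrow promoters, and Tgfb2 and the receptor and SMAD genes broad ones. The width that holds the middle 80% of the tags of the most used window was 2 bases in all 3 mESC libraries for Lefty2, 3.33 ± 0.577 for Lefty1, 3.67 ± 1.15 for Nodal and 29 ± 1 for Tdgf1 (SD, n = 3). For the inner start group of Tgfb1 in mESCs it was 45 ± 7.81 bases. In mOPCs it was 376.3 ± 105.8 bases for Tgfb2 and 199.3 ± 15.9 for Tgfbr2. With the middle 50% of tags the gap to Tdgf1 was smaller. Tdgf1 then measured 12.7 ± 0.577 bases in mESCs, and in mOPCs Tgfbr2 measured 32.0 ± 1.73 and Tgfb2 58.0 ± 1.00.

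Acvr2b, Smad2 and Smad3, 3 genes in all, had at least 20 tags per library in both lines in that window, and their widths could be compared. For Smad2 the width was 273, 242 and 258 bases in mESCs and 538, 526 and 526 in mOPCs, without overlap, so that the promoter tags of Smad2, similar in number, were spread over a wider stretch in mOPCs. Smad3 measured 291, 319 and 276 bases in mESCs and 310, 340 and 339 in mOPCs, and Acvr2b 329, 330 and 328 against 335, 227 and 256, both with overlap. The exact permutation p was 0.1 for Smad2, the smallest that 3 libraries against 3 allow, 0.2 for Smad3 and 0.4 for Acvr2b (two-sided; 0.3, 0.3 and 0.4 after Benjamini-Hochberg adjustment over 3 genes). Libraries did not overlap in either direction for 61.4% of the 11285 genes measured this way, so 1 in 3 lies within the background. These counts depended on the measure: with the middle 50% of the tags all 3 genes were without overlap. Smad2 then measured 27.3 ± 1.53 bases in mESCs and 195.0 ± 0.00 in mOPCs, Acvr2b 89.7 ± 2.89 and 179.7 ± 2.89, and Smad3 76.0 ± 24.3 and 20.3 ± 9.07, narrower in mOPCs.

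Tags inside the genes but outside the promoter windows differed from the promoters in Smad2, Acvr2b and Tgfb1. Inside the Smad2 gene and outside its windows, the mESC libraries held 231, 82 and 110 tags (6.10, 4.92 and 5.97 TPM) and the mOPC libraries 357, 456 and 698 (16.3, 15.8 and 17.1). The mOPC mean of 16.4 ± 0.627 was 2.89-fold the mESC mean of 5.66 ± 0.644, beside promoter levels that did not differ beyond their spread. Acvr2b and Tgfb1, with promoters higher in mESCs, had body tags that overlapped between the lines, at 3.88 ± 0.147 TPM in mESCs and 3.68 ± 0.311 in mOPCs for Acvr2b and at 1.22 ± 0.0916 and 1.67 ± 0.639 for Tgfb1. On the opposite strand, in the 1000 bases before the most used start of Smad2, where no gene is annotated, mESCs had 1.82, 0.961 and 1.19 TPM and mOPCs 10.3, 7.39 and 8.72, a ratio of the means of 6.63.

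Such tags were more frequent in mOPCs over all genes as well. The median ratio of mOPCs to mESCs was 1.63 for tags in gene bodies over 15201 genes and 1.30 for opposite-strand tags over 13099 genes with tags in both lines. Body tags were higher in every mOPC library for 49.5% of all tested genes, and for 4 of the 10 described here, Smad2, Smad3, Tgfb2 and Tgfbr2. Opposite-strand tags were so for 38.5% of all tested genes and also for 4 of the 10, Acvr2b, Smad2, Tgfb2 and Tgfbr2. Both counts lie near their background, and the exact permutation p was 0.1 in each of these cases, the smallest possible (two-sided).

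**Figure D3:**
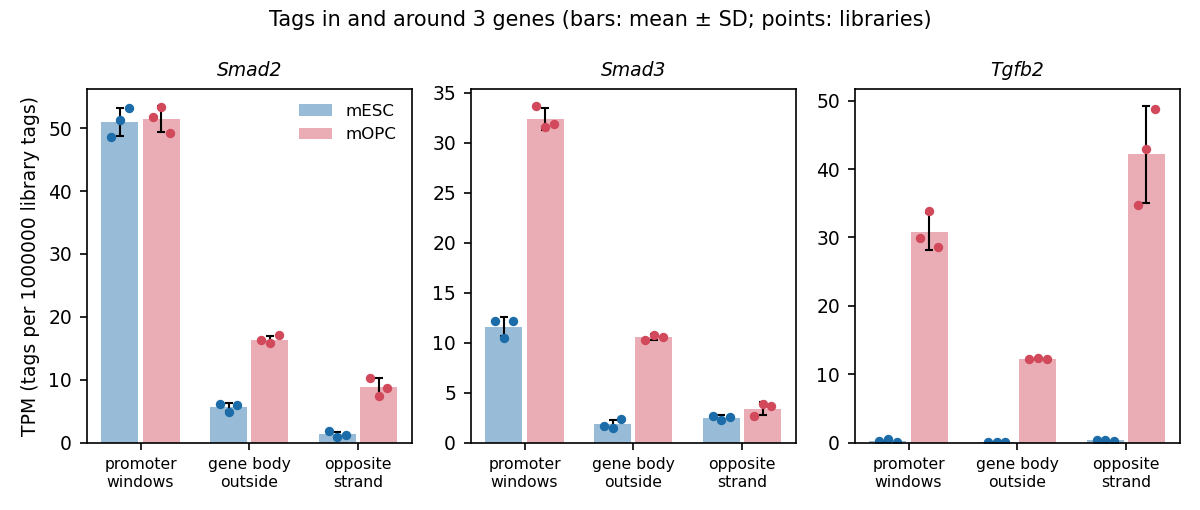
TPM (y axis) for Smad2, Smad3 and Tgfb2 in promoter windows, in the gene body outside them and on the opposite strand within 1000 bases before the most used start (x axis). Bars give the mean, error bars the SD and points the 3 libraries of each cell type, and the libraries of Smad2 overlap in its promoter windows but are higher in mOPCs in both other places.

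Smad3 body tags were 1.83 ± 0.441 TPM in mESCs and 10.6 ± 0.279 in mOPCs, a ratio of 5.76 against 2.79 for its promoter. The opposite strand before Tgfb2 carried more tags than the promoter windows of Tgfb2 in each mOPC library, at 34.7, 42.9 and 48.8 TPM, against 0.370, 0.420 and 0.271 in mESCs. There the annotation has a gene of its own, the long non-coding RNA gene Gm29491, whose tags went with those of Tgfb2.

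Outside its promoter windows, the body of Nodal held 1, 2 and 2 tags in the mOPC libraries and that of Lefty2 held 1, 0 and 2, whereas Lefty1 and Tdgf1 had none there. With all tags in the gene body and windows counted, the fitted log2 fold change was −8.62 for Nodal and −12.67 for Lefty2, against −12.17 and −15.62 with promoter tags alone, values that depend on the fit where a line has 0 tags.

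These 4 genes, with promoter tags in mESCs alone, also had starts in the unannotated stretches within 20 kb before their main start, where enhancers commonly lie. Counting both strands, at least 1000 bases away from the start and outside annotated genes, Nodal had 349 such tags in mESCs and 17 in mOPCs, Lefty1 379 and 21, Lefty2 922 and 22, and Tdgf1 1038 and 0. The mESC means were 4.53 ± 0.796, 5.00 ± 1.28, 12.4 ± 1.06 and 13.99 ± 2.26 TPM, and the mOPC means 0.191 ± 0.032, 0.237 ± 0.039, 0.249 ± 0.046 and 0. Some of the mESC tags gathered in a few places, and the rest were spread more thinly. For Nodal the 500-base bin beginning 2500 bases before the main start held 76 same-strand tags. For Lefty2 the bin at 8000 bases held 198 opposite-strand tags and that at 4500 bases 144 same-strand tags, and for Tdgf1 the bin at 1500 bases held 337 same-strand tags. That Tdgf1 bin adjoins the 1000 bases left out before the start. Upstream differences were not particular to these 4 genes. Tgfb2 had 26 such tags in mESCs and 234 in mOPCs, Smad2 11 and 113, Tgfb1 5 and 49, and Tgfbr2 0 and 11, all without overlap. Acvr2b and Smad3 overlapped between the lines, and the share over all genes was not measured.

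Across the wider pathway, differences ran in both directions at each step from the ligands to the intracellular inhibitors. Of the 55 listed genes reported here, which include the 10 described above, 50 were tested. Of these, 26 were higher in mESCs, 17 were higher in mOPCs and 7 did not pass the test (86.0% called, against 91.2% of all tested genes). Genes that reached the filter level throughout 1 line only had to differ once they passed it. Among them were Gdf3, Fst, Foxh1 and Ccn2 with 0 tags in mOPCs, and Tgfb3, Eng and Ltbp2 near 0 in 1 line. They stand in the counts here and by role, and in the median that follows. The median log2 fold change was −0.40 over these 50 genes, with or without genes at 0 tags set to their bounds, and −0.12 over all 16713.

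**Figure D4:**
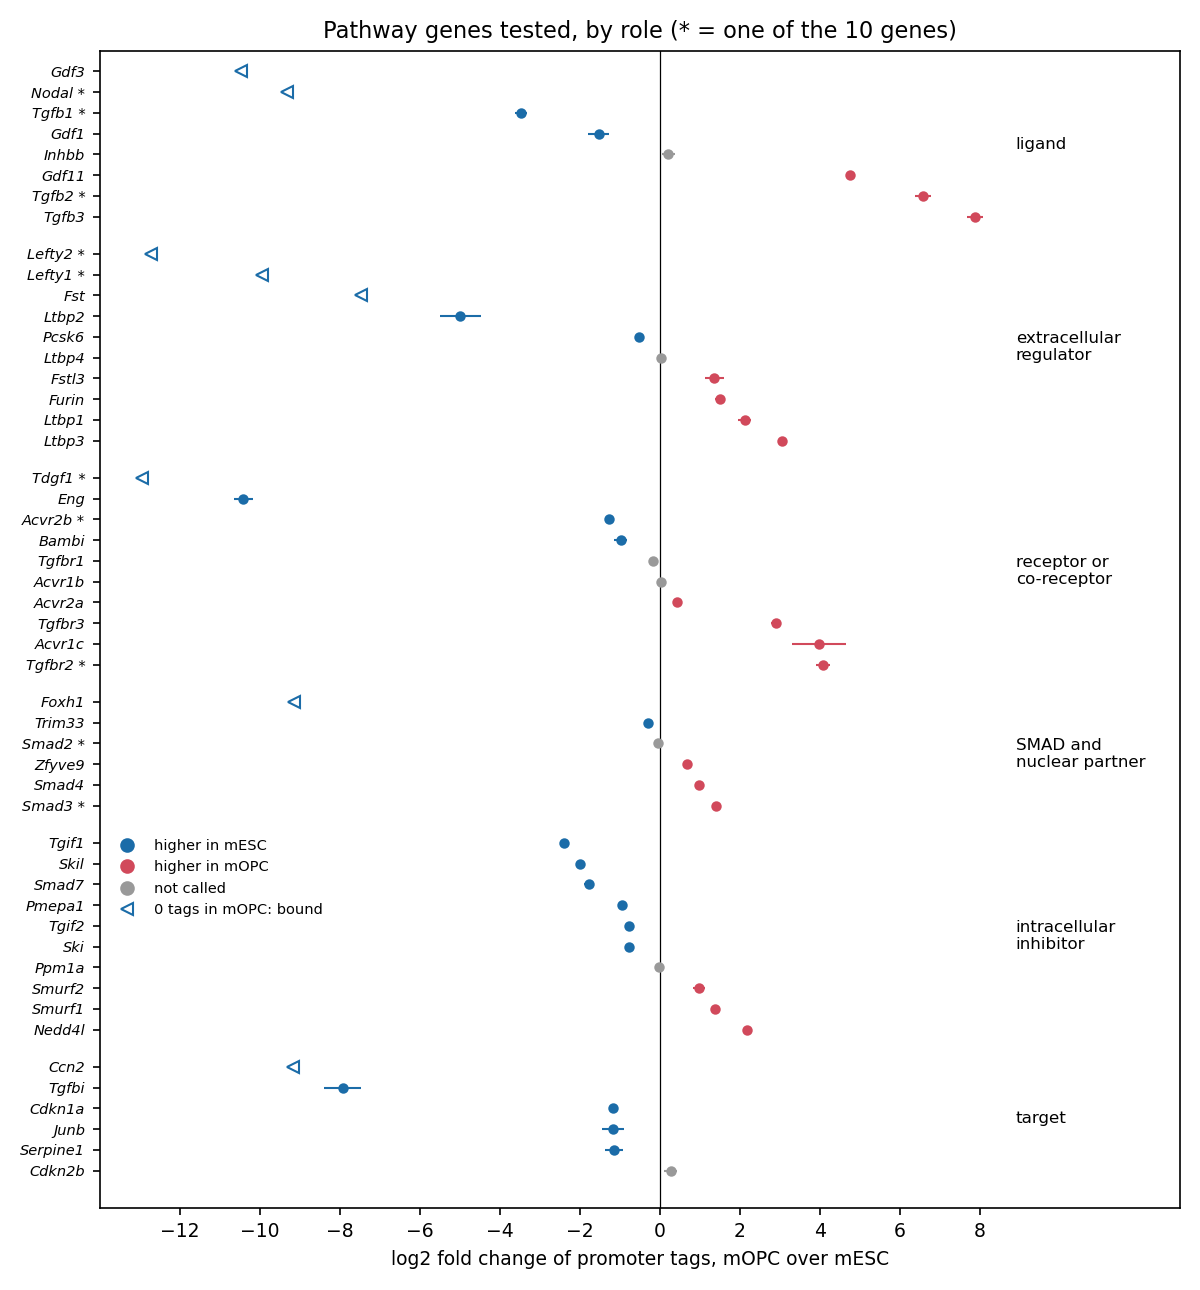
Log2 fold change of promoter tags, mOPCs over mESCs (x axis), of the 50 pathway genes tested (y axis), grouped by role, with SE as error bars and a star at the 10 genes described. Open triangles are bounds for genes with 0 tags in mOPCs, and calls in both directions occur in each role from ligand to intracellular inhibitor.

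Among 8 ligand genes tested, 4 were higher in mESCs and 3 in mOPCs. Gdf3, a ligand that uses the same co-receptor as NODAL, had 1829, 773 and 773 tags in mESCs and 0 in mOPCs, at least 1414-fold higher in mESCs. In mOPCs, Tgfb3 stood with Tgfb2 at 38.4 ± 2.36 TPM, against 0.127 ± 0.077 in mESCs (log2 fold change 7.88 ± 0.21 SE), and Gdf11 at 134.8 ± 6.82 against 4.71 ± 0.458 (4.76 ± 0.11 SE). The activin gene Inhbb did not pass the test, with 3.26 ± 0.504 TPM in mESCs and 3.99 ± 0.621 in mOPCs.

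Of 10 extracellular regulators tested, 5 were higher in mESCs and 4 in mOPCs. Fst, which encodes the activin antagonist follistatin, had 216, 103 and 102 tags in mESCs and 0 in mOPCs, at least 176-fold higher in mESCs. The genes of latent TGF-β binding proteins, which hold secreted TGF-β in the matrix, were split. Ltbp2 was higher in mESCs, with 46, 16 and 21 tags against 1, 0 and 2 in mOPCs, a ratio of 34.8 (95% exact binomial counting interval 11.5 to 172.0). Ltbp3 stood at 83.0 ± 4.65 TPM in mOPCs and 9.43 ± 0.291 in mESCs (log2 fold change 3.07 ± 0.10 SE), and Ltbp1 at 9.48 ± 0.816 and 2.01 ± 0.405 (2.13 ± 0.16 SE). Ltbp4 did not pass the test, at 87.2 ± 4.35 in mOPCs and 81.7 ± 7.42 in mESCs.

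Of 10 receptor and co-receptor genes tested, 4 were higher in mESCs and 4 in mOPCs. Eng, which encodes the TGF-β co-receptor endoglin, had 1854, 766 and 937 tags in mESCs and 0, 2 and 1 in mOPCs, a ratio of 1489.8 (95% exact binomial counting interval 509 to 7228). Tgfbr3, which encodes the co-receptor betaglycan that presents TGF-β2 to TGFBR2, went with Tgfbr2 and Tgfb2, at 26.5 ± 1.72 TPM in mOPCs and 3.43 ± 0.229 in mESCs (log2 fold change 2.90 ± 0.13 SE). The type I receptor genes Tgfbr1 and Acvr1b, the partners of Tgfbr2 and Acvr2b, did not pass the test. Tgfbr1 stood at 30.8 ± 1.48 TPM in mESCs and 28.7 ± 1.85 in mOPCs, and Acvr1b at 32.8 ± 2.29 and 35.2 ± 2.43.

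Of 6 SMADs and nuclear partners, 2 were higher in mESCs and 3 in mOPCs. Foxh1, the partner through which NODAL acts on Lefty2 and on Nodal itself, had 740, 286 and 316 tags in mESCs and 0 in mOPCs, at least 562-fold higher in mESCs. Smad4, the common partner of Smad2 and Smad3, was higher in mOPCs, at 89.9 ± 5.74 TPM against 43.5 ± 4.58 (log2 fold change 0.98 ± 0.09 SE).

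Of 10 intracellular inhibitor genes, 6 were higher in mESCs and 3 in mOPCs. The repressors that act with SMADs on DNA were higher in mESCs, led by Tgif1 at 256.1 ± 10.3 TPM against 51.2 ± 4.81 in mOPCs (log2 fold change −2.39 ± 0.09 SE). Skil stood at 67.3 ± 1.85 and 17.7 ± 1.40 (−1.997 ± 0.09 SE) and Smad7, the inhibitory SMAD, at 15.8 ± 0.427 and 4.83 ± 0.357 (−1.76 ± 0.13 SE). The ubiquitin ligase genes were the ones higher in mOPCs, with Nedd4l at 117.4 ± 4.001 TPM against 24.4 ± 1.73 (2.19 ± 0.09 SE), Smurf1 at 28.7 ± 3.54 against 10.4 ± 0.986 and Smurf2 at 7.51 ± 0.504 against 3.68 ± 0.598.

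Of the 6 target genes reported here, 5 were higher in mESCs (83.3% called). Among all tested genes, 91.2% were called, 47.8% as higher in mESCs. Cdkn2b did not pass the test, at 4.05 ± 0.770 TPM in mESCs and 4.98 ± 0.533 in mOPCs. Ccn2, which encodes connective tissue growth factor, had 745, 280 and 352 tags in mESCs and 0 in mOPCs, at least 577-fold higher in mESCs. Each gene named from these lists as higher in one line had libraries that did not overlap. Besides the genes that the naming rule gave, Inhbb, Gsc, T, Ltbp2, Ltbp4, Tgfbr1, Acvr1b, Smad4, Skil, Smad7, Smurf1, Smurf2 and Cdkn2b were chosen after their values were seen.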

How the data were processed

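The values the authors deposited for each library are raw counts of CAGE tags by the genomic position and strand of their 5′ end. According to the study's methods, demultiplexed reads without ambiguous bases were linker-trimmed and aligned to mm10 with bowtie, and unique alignments were kept. The submitters' processing notes name CASAVA 1.8 and BWA 0.5.9, so the aligner of these files is uncertain. Tags were assigned to GENCODE vM21 genes, where the study used M14. Libraries held 16657021 to 40928704 tags.

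Promoter tags (500 bp around each annotated 5′ end) were tested with the quasi-likelihood test of edgeR 4.0.16 in R 4.3.3 (TMM factors on library totals, filterByExpr, robust fit, Benjamini-Hochberg), with DESeq2 1.42.0 as an alternative. The test was run on simulated counts for these 16713 genes with 200 changes of 2 on the log2 scale: it recovered 198, and 7 of its 205 calls (3.41%) were false. Starts, widths and sequences were handled in Python 3.11.15 (pandas 2.3.3, numpy 2.4.6, matplotlib 3.10.9, scipy 1.17.1). Windows of 100 and 1000 bp, other transcripts, filters and scalings, thinned libraries, a replicate block and each library left out served as alternatives.

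The 10 genes and all lists were chosen with earlier results of these data known. An item of the target list is not reported here and was left out of all counts over the lists. The naming rule gave, besides the 10, the 6 genes in each direction with the largest change among called pathway genes with non-overlapping libraries and at least 5 TPM in the higher line. The further genes listed above were chosen after their values were seen. Chi-square values per gene between libraries of a line lay between 4.53 and 11.1, so no library was a copy. The authors' RNA–DNA contact data were not used here.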

Additional observations from a re-analysis of the deposited data

How the results depend on the processing

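Under all 17 other fits the 10 genes gave 6 higher in mESCs and 3 higher in mOPCs, except with windows of 100 bp, which gave 5 and 4. In that fit Nodal could not be fitted, since its starts lie outside the window, and Smad2 turned to higher in mOPCs (log2 fold change 0.71, edgeR adjusted p = 2.7e-07), while its main starts at 319 and 341 bases were left out. The other 168 of 169 fold changes of the 10 genes kept their side of the threshold, and those of the 9 called genes their direction. Smad2, which was not called, changed sign with library totals alone (log2 fold change 0.01) and with all tags in the gene body and windows (0.16). Pathway genes ranged from 23 to 28 higher in mESCs and from 16 to 20 higher in mOPCs, and without any filter beyond 1 tag 18184 of 25166 genes were called. Another scaling moved the median of all genes from −0.12 to −0.05 (library totals alone) or −0.21 (DESeq2).

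The number of genes whose promoter widths did not overlap was 1 of 3, and became 3 of 3 with the middle 50% of tags and 3 of 4 with windows of 100 bp. It ranged from 1 to 3 when single libraries were left out, with 3 of 4 without mESC replicate 2 and 3 of 3 without mOPC replicate 1. With each library alone, 0 of 5 genes had the same highest position in all 6 libraries, against 1 of 5 in the pooled tags. Same-numbered libraries of the lines correlated at 0.0023, 0.097 and 0.0087, and differently numbered ones at −0.128 to 0.116. No pairing by number was thus seen, although correlations of this kind cannot show how the libraries were prepared. A fit with the replicate number as a block called 15224 genes and again 6 and 3 of the 10. Depth limits the values of Tgfb2 and Tgfbr2 in mESCs and the Tgfb1 start shares in mOPCs.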
